A study of Mus musculus with 36 samples.

Results

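Cxcl1, Cxcl2, Cxcl3 and Cxcl5 encode mouse CXC chemokines that attract neutrophils. They were taken by gene name from the deposited tables, as 4 of the 53421 genes with read counts and 4 of the 52416 genes with TPM (a level corrected for transcript length, scaled to the same sum in each library). Each name was found once in each table, and all 4 were followed over the 12 conditions of the study.

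CXC chemokines are small secreted proteins that guide leukocytes along a gradient. The members described here carry the ELR motif, a glutamate, leucine and arginine run ahead of the first cysteines, and act through the receptor CXCR2 on neutrophils. Their genes are textbook targets of the transcription factor NFκB downstream of IL-1, and their mRNAs are short-lived because proteins that bind AU-rich elements in the 3′ untranslated region speed their decay. In joint tissue they are known as products of chondrocytes and synovial fibroblasts exposed to inflammatory cytokines.

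The study sequenced poly(A) RNA from a mouse chondrocyte line that the labels call fibroblastic, with wild-type cells that the methods describe as conditionally immortalised and released from immortalisation before use. The NT cells got a control siRNA pool without a target and the IFT88siRNA cells a pool directed at Ift88, which encodes a protein of ciliary intraflagellar transport. Transfected cells then got no IL-1β (0 h) or IL-1β at 10 ng/ml, with RNA taken 1, 2, 4, 8 or 24 h later. Each of the 12 conditions had 3 libraries, 36 in all. The comparisons ask how these genes respond to IL-1β over time and whether that depends on IFT88. Nothing in the labels says whether the 3 libraries of a condition came from separate cultures, so p-values measure the spread between these libraries, which may be technical. The labels give the siRNA at 50 nM and the methods at 10 nM. All cells were of 1 line and all had been transfected. No library without IL-1β at a later time was analysed here, so the effect of IL-1β and that of time since the 0 h sampling cannot be told apart.

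Total counts on genes ranged from 19337022 to 38304127 per library, with a median of 21672803.5 in NT and 25873754 in IFT88siRNA. Ift88 itself stood at 5.83 to 10.2 CPM (read counts scaled to each library's size with TMM) in the 18 NT libraries and at 1.43 to 3.10 in the 18 IFT88siRNA libraries, without overlap at any time point, and its mean in IFT88siRNA was 23.0% to 36% of that in NT, with log2 changes of -2.12 to -1.47 that passed both thresholds (adjusted p under 0.05 and fold change over 1.5, edgeR) at all 6 times. At 8 h, replicate 3 of IFT88siRNA had 3.0 CPM of Ift88, against 1.53 and 1.59 in the other replicates. The labelled cell type was only partly met by its markers: 4 of 8 chondrocyte markers (Sox9, Col2a1, Comp and Col11a2) reached 1 TPM in a library, while Acan stayed at or below 0.206 TPM, and the 8 summed to 16.8 to 58.9 TPM in NT and 23.5 to 54.6 TPM in IFT88siRNA. The 6 fibroblast markers summed to 1533 to 4414 TPM in NT and 1789 to 4595 TPM in IFT88siRNA. Of the fibroblast markers, 1 of 6 passed the test between the siRNA groups at 0 h (Col3a1) and none did at a later time. Neutrophil markers summed to at most 25.3 TPM in NT and 17.3 TPM in IFT88siRNA, of which S100a8 reached 24.3 TPM, with no read of Mpo in any library and at most 5 of Ly6g and 1 of S100a9. The 5 macrophage or other leukocyte markers summed to 7.50 to 15.0 TPM in NT and 7.10 to 13.5 TPM in IFT88siRNA, and Ptprc, the pan-leukocyte antigen, had at most 5 reads in a library. The 3 endothelial markers summed to at most 1.54 TPM and the 3 epithelial markers to at most 7.62 TPM.

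The 4 genes lie on the plus strand of chromosome 5, within 146.6 kb (GRCm38). Cxcl5 (ENSMUSG00000029371) is at chr5:90759360-90761624, Cxcl3 (ENSMUSG00000029379) at chr5:90786103-90789600, Cxcl1 (ENSMUSG00000029380) at chr5:90891241-90893115 and Cxcl2 (ENSMUSG00000058427) at chr5:90903871-90905938. Each is protein-coding, and its longest coding transcript has 4 exons. None overlaps another annotated gene on either strand. Cxcl2 and Cxcl3 share sequence: 3.48% of the 75-base stretches of the Cxcl2 transcript and 3.82% of those of the Cxcl3 transcript occur in another gene's transcripts, against 0% for Cxcl1 and 0.804% for Cxcl5, and reads from the shared stretches are uncertain.

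The promoters are shown because the 3 that were matched in the promoter table hold the same pair of short words upstream of the start. They were taken from RefSeq (GRCm38.p6, plus strand), from 250 bases before to 50 bases after the annotated start, and promoters of 3 of the 4 genes were matched. Capitals mark the κB word GGAATTTCC, a sequence that NFκB dimers are known to bind, and the TATA word ATAAAAG.

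Cxcl1 promoter, chr5:90890995-90891294: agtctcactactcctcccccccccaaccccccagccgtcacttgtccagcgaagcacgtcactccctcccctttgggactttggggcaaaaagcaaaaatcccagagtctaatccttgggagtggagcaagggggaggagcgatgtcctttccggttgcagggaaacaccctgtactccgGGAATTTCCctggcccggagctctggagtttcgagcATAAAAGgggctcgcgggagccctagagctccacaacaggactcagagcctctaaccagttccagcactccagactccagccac

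Cxcl2 promoter, chr5:90903649-90903948: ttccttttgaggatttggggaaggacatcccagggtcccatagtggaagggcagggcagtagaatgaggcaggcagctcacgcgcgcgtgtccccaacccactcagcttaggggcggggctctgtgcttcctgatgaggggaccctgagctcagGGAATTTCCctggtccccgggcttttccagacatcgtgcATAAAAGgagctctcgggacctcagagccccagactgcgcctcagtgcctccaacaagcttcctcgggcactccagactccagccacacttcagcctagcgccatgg

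Cxcl3 promoter, chr5:90785851-90786150: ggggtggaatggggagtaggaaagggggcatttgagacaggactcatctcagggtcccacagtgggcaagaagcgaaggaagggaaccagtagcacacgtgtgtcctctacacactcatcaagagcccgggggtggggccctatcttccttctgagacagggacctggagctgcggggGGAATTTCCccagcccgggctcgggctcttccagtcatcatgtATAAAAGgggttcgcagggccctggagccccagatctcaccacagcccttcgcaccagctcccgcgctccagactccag

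Counted from the RefSeq starts, the κB word begins 70 bases upstream in Cxcl1, 96 in Cxcl2 and 72 in Cxcl3, and the TATA word 34, 57 and 29 bases upstream. RefSeq and the Ensembl positions given above do not place the starts at the same base. The RefSeq starts of Cxcl1 and Cxcl2 lie inside the Ensembl genes, that of Cxcl2 further in. The distances from the RefSeq starts are thus not comparable between the genes. Both words were searched on both strands, do not overlap here and were chosen after the sequences were seen. The κB word occurs in 0.317% of 32851 promoter windows of the same length, the TATA word in 5.42%, and both together in 9 windows (0.027%), of which these are 3. A looser but longer κB consensus, which covers the κB word in these 3 promoters though not in every sequence, occurs in 8.46% of windows. The AP-1 word TGANTCA occurs in 7.81% of windows and in none of the 3. Aligned by position without gaps, Cxcl2 and Cxcl3 were identical at 86 of 300 bases, Cxcl1 and Cxcl2 at 72 and Cxcl1 and Cxcl3 at 66. The windows are set by those RefSeq starts and shifted stretches were not aligned, so these counts cannot say how alike the promoters are. These matches are descriptions of letters, and binding was not measured.

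The 3′ untranslated regions held more ATTTA, the core of the AU-rich element, than the median coding gene, which has 0.981 per kilobase. ATTTA occurs 7 times in Cxcl1 (592 bases), 11 times in Cxcl2 (734 bases), 5 times in Cxcl3 (645 bases) and 5 times in Cxcl5 (1111 bases). Per kilobase, the density was 11.8 in Cxcl1, 15.0 in Cxcl2, 7.75 in Cxcl3 and 4.50 in Cxcl5. As many per kilobase or more were found in 1.05%, 0.577%, 2.97% and 9.74% of coding genes, in the same order. The AU-rich nonamer, a longer form of the element, occurs 2 times in Cxcl1, 4 times in Cxcl2, 3 times in Cxcl3 and 0 times in Cxcl5, and at least once in 13.3% of coding genes.

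Cells in medium only had very little of these mRNAs, and all 4 rose in NT at all 5 time points after IL-1β. The share of all 16048 genes tested that rose past both thresholds was 9.22% at 1 h, 13% at 2 h, 16.3% at 4 h, 11.8% at 8 h and 6.61% at 24 h. The genes split by timing. Cxcl1 and Cxcl2 were highest at 1 h and Cxcl3 and Cxcl5 from 4 h on.

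Cxcl1, the most abundant of the 4 by TPM at 1 h, was at 2.28, 2.60 and 2.0 CPM in the 3 NT libraries at 0 h and at 1457, 1348 and 1456 CPM at 1 h. The ratio of mean CPM was 620, with a log2 change of 9.27 ± 0.08 (SE; edgeR, adjusted p = 1.96e-29). It then stood at 701, 727 and 781 CPM at 2 h, 637, 688 and 682 CPM at 4 h, 569, 522 and 537 CPM at 8 h, and 716, 694 and 651 CPM at 24 h. Every library after IL-1β was thus far above the 0 h libraries, and the plateau from 2 to 24 h lay between 38.2% and 51.8% of the 1 h mean. Among all genes with TPM, Cxcl1 ranked 11454 to 11825 in the NT libraries at 0 h and 18 to 21 at 1 h.

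Cxcl2 rose together with Cxcl1 but did not hold its level after 4 h. It had 1, 0 and 1 reads in the NT libraries at 0 h, so any fold from 0 h is poorly fixed. At 1 h it reached 58.7, 53.7 and 62.2 CPM, with 3601 reads summed over the 3 libraries against 2 at 0 h, a ratio of 2043 with an exact 95% interval of 565 to 16880 for counting error only. It was at 36, 34.6 and 44.3 CPM at 2 h and 40.2, 35.1 and 42.5 CPM at 4 h, then at 8.53, 6.88 and 8.45 CPM at 8 h and 2.84, 2.53 and 3.01 CPM at 24 h. The 4 h and 8 h libraries did not overlap, and the 24 h mean was 4.80% of the 1 h mean, while Cxcl1 at 24 h kept 48.4% of its own.

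Cxcl3, whose product shares the receptor of Cxcl1 and Cxcl2, rose in steps. In NT it was at 0.465, 0.0825 and 0.0887 CPM at 0 h (11, 2 and 2 reads), 1.17, 1.04 and 2.07 CPM at 1 h and 5.48, 5.38 and 8.53 CPM at 2 h. It reached 24.8, 20.4 and 26.9 CPM at 4 h and 23.0, 21.6 and 23.9 CPM at 8 h, and was at 16.6, 16.7 and 12.7 CPM at 24 h. The levels of successive time points up to 4 h did not overlap, and at 1 h the mean was only 5.94% of that at 4 h. The log2 change from 0 h to 1 h was 2.70 ± 0.54 (SE; adjusted p = 0.000164), and that from 0 h to 4 h was 6.79 ± 0.29 (adjusted p = 3.86e-16). Without replicate 1, which held most of the reads at 0 h, these log2 changes of Cxcl3 were 4.07 and 8.03.

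Cxcl5, known in mice as a neutrophil attractant of epithelial and stromal cells, had its highest mean CPM at the latest time, 24 h. Its NT libraries were at 0.380, 0.371 and 0.355 CPM at 0 h, 7.58, 5.68 and 9.5 CPM at 1 h and 72.2, 61.4 and 86.4 CPM at 2 h. They were at 638, 684 and 642 CPM at 4 h, 770.0, 716 and 744 CPM at 8 h, and 854, 896 and 797 CPM at 24 h. The ratio of mean CPM to 0 h was 20.6 at 1 h, 1775 at 4 h and 2302 at 24 h, the last a log2 change of 11.15 ± 0.17 (SE; adjusted p = 1.38e-24). Its rank by TPM moved from 14645 to 14966 at 0 h to 64 to 72 at 24 h.

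**Figure D1:**
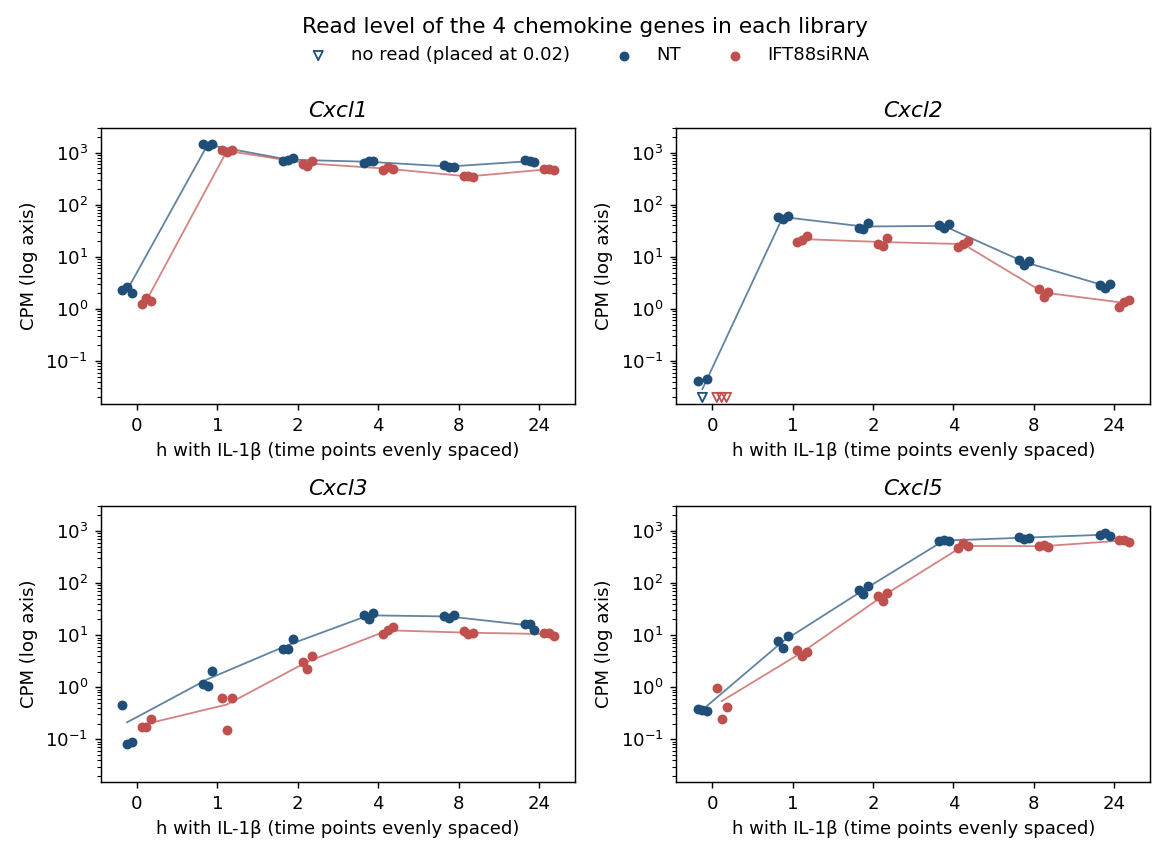
CPM of Cxcl1, Cxcl2, Cxcl3 and Cxcl5 (log axis) in each of the 36 libraries, by hours with IL-1β, with lines through the means of 3 libraries for NT and IFT88siRNA and open triangles, placed at 0.02, for libraries with no read. Cxcl1 and Cxcl2 reach their highest level at 1 h and Cxcl5 climbs to 24 h, with the IFT88siRNA points below the NT points from 1 h on, except for Cxcl5 at 2 h, where they overlap.

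Neighbouring time points were compared within NT to say which steps exceeded the spread between libraries. From 1 to 2 h all 4 genes passed, when 11.9% of all genes did, and they moved in opposite directions: Cxcl1 fell by 0.95 and Cxcl2 by 0.60 on the log2 scale, while Cxcl3 rose by 2.19 and Cxcl5 by 3.28. Without replicate 1 the log2 change of Cxcl2 was -0.55, under the fold threshold. From 2 to 4 h only Cxcl3 (1.89 ± 0.16, SE) and Cxcl5 (3.17 ± 0.09) of the 4 passed, when 27.1% of genes did. From 4 to 8 h only Cxcl2 passed, when 16.9% of genes did, with a log2 change of -2.30 ± 0.10 (adjusted p = 6.02e-15), and from 8 to 24 h again only Cxcl2, when 13.4% of genes did (-1.51 ± 0.15, adjusted p = 8.44e-09). Without replicate 1, or without replicate 2, Cxcl3 also passed from 8 to 24 h, where its value with all libraries was -0.58 ± 0.14 (adjusted p = 0.00119), just short of the fold threshold. Cxcl1 had its lowest NT level after IL-1β at 8 h and its log2 change from 8 to 24 h was 0.34 ± 0.05 (adjusted p = 6.23e-06), under the fold threshold. Cxcl2 at 2 and 4 h (0.04 ± 0.09) and Cxcl3 at 4 and 8 h (-0.07 ± 0.14) did not differ beyond the spread between libraries. Cxcl5 from 8 to 24 h did not pass (0.19 ± 0.08, edgeR, unadjusted p = 0.030, adjusted p = 0.0653), although its libraries at those times did not overlap.

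IFT88siRNA cells followed the same order of events. All 4 genes passed as higher than 0 h at 2, 4, 8 and 24 h, when 12.4%, 16%, 10.5% and 6.36% of the 16129 genes tested did. At 1 h 3 of 4 passed, when 6.82% of genes did. The exception was Cxcl3, at 0.631, 0.150 and 0.617 CPM (15, 4 and 15 reads) against 0.170, 0.176 and 0.247 CPM at 0 h, a log2 change of 1.18 ± 0.52 (SE; adjusted p = 0.0694) which did not pass. It passed with DESeq2, with no filter on low counts and without replicate 2. Cxcl2 had no read in the 3 IFT88siRNA libraries at 0 h. Against a floor of 3 counts per library it was at least 210-fold higher at 1 h and at least 12.5-fold higher at 24 h. By mean CPM, Cxcl1 and Cxcl2 were again highest at 1 h, Cxcl3 at 4 h and Cxcl5 at 24 h. Neighbouring time points were not tested within IFT88siRNA. There the libraries of Cxcl2 at 1 and 2 h overlapped, as did those of Cxcl3 at 4 and 8 h. By TPM the mean of Cxcl3 was highest at 8 h in both groups, at 54.6 in NT and 25.8 in IFT88siRNA.

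**Figure D2:**
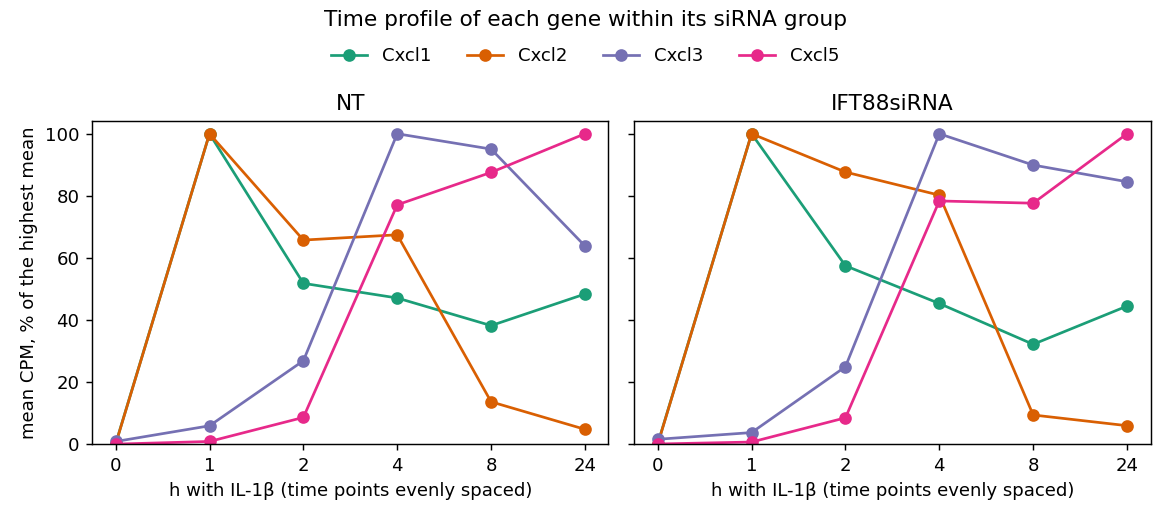
Mean CPM of each gene as a percentage of its highest mean within the siRNA group, by hours with IL-1β, for NT (left) and IFT88siRNA (right), each point a mean of 3 libraries. In both groups Cxcl1 and Cxcl2 peak at 1 h, Cxcl3 at 4 h and Cxcl5 at 24 h, and at 24 h Cxcl2 is at 4.80% of its highest mean in NT and 5.98% in IFT88siRNA.

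Before IL-1β, Cxcl1 was already lower after Ift88 siRNA. The IFT88siRNA libraries were at 1.26, 1.65 and 1.45 CPM, all below the NT libraries, and the mean was 63.4% of that in NT. The log2 change was -0.66 ± 0.18 (SE; adjusted p = 0.0125), so 1 of the 2 members tested at 0 h passed as lower, when 1.56% of genes did. Every IFT88siRNA library lay below every NT library in 17.4% of all genes at 0 h. This call was lost with DESeq2, with TPM and without replicate 1 (adjusted p from 0.0812 to 0.224). Cxcl5 at 0 h was at 0.954, 0.246 and 0.424 CPM (28, 7 and 12 reads), which overlapped NT (log2 change 0.56 ± 0.42, adjusted p = 0.391), and replicate 1 stood apart. Cxcl2 and Cxcl3 had too few reads at 0 h to be tested.

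After IL-1β, the mean of each of the 4 genes was lower in IFT88siRNA at all 5 time points, as it was for 13.8% of 16710 genes. For Cxcl1, Cxcl2 and Cxcl3 every IFT88siRNA library also lay below every NT library at each of those times, as in 1.01% of genes, and for Cxcl5 at 4 of the 5 times. Averaged over 1 to 24 h, the log2 change between the siRNA groups was -1.32 ± 0.07 (SE) for Cxcl2, -1.04 ± 0.11 for Cxcl3, -0.46 ± 0.06 for Cxcl5 and -0.44 ± 0.03 for Cxcl1, with adjusted p-values from 2.25e-16 to 5.18e-08 (edgeR, a contrast added after the data were seen). Cxcl2 and Cxcl3 passed both thresholds, when 1.75% of genes did so as lower, and Cxcl1 and Cxcl5 passed the adjusted p alone. The median over all genes was 0.00.

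Cxcl2 or Cxcl3 had the lowest share of the NT level at every time, Cxcl3 at 1 and 2 h and Cxcl2 at 4, 8 and 24 h. For Cxcl2, the IFT88siRNA libraries at 1 h were at 19.4, 20.9 and 25.5 CPM, 37.7% of the NT mean, with a log2 change of -1.41 ± 0.08 (SE; adjusted p = 2.07e-08). At 2 h they were at 18, 16.4 and 23.3 CPM (50.2% of NT) and at 4 h at 15.7, 17.4 and 19.7 CPM (44.8%). The groups stayed apart with no overlap, and the log2 changes were -0.99 ± 0.13 (adjusted p = 0.00298) and -1.16 ± 0.09 (adjusted p = 3.87e-06). At 8 h they were at 2.44, 1.66 and 2.1 CPM, 26% of NT, with a log2 change of -1.97 ± 0.16 (adjusted p = 8.66e-05). At 24 h they were at 1.11, 1.37 and 1.46 CPM, 46.9% of NT (-1.08 ± 0.17, adjusted p = 0.000926). Cxcl2 thus passed both thresholds at all 5 time points after IL-1β.

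Cxcl3 passed at 4 of the 5 time points. At 1 h the NT libraries were at 1.17, 1.04 and 2.07 CPM and those of IFT88siRNA at 0.631, 0.150 and 0.617 CPM, from 4 to 42 reads each (log2 change -1.64 ± 0.39, SE; adjusted p = 0.0078). At 2 h the IFT88siRNA libraries were at 3.09, 2.20 and 4.0 CPM, at 4 h at 10.7, 12.3 and 14.2 CPM and at 8 h at 12.1, 10.4 and 11.0 CPM. Those were 47.9%, 51.6% and 48.8% of the NT means, with log2 changes of -1.06 ± 0.23, -0.95 ± 0.11 and -1.06 ± 0.08 and adjusted p-values of 0.033, 0.000135 and 7.26e-05. At 24 h they were at 11.0, 10.9 and 9.44 CPM, 68.3% of NT, and the log2 change of -0.55 ± 0.10 (adjusted p = 0.00295) was under the fold threshold.

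Cxcl1 was lower by less. In IFT88siRNA it was at 1102, 1047 and 1106 CPM at 1 h, 609, 567 and 695 CPM at 2 h and 463, 521 and 491 CPM at 4 h. It was at 361, 352 and 334 CPM at 8 h and 490, 484 and 474 CPM at 24 h. These means were 76.4%, 84.7%, 73.5%, 64.3% and 70.3% of those in NT, from the earliest time to the latest. Of the 5 times after IL-1β, it passed both thresholds at 8 h (-0.65 ± 0.05, adjusted p = 7.41e-05). At 1, 4 and 24 h the adjusted p was 7.16e-06, 0.000106 and 1.04e-05 with a fold under 1.5, and at 2 h the adjusted p was 0.0943.

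Cxcl5 in IFT88siRNA was at 5.26, 4.0 and 4.81 CPM at 1 h, 57.5, 45.1 and 65.7 CPM at 2 h and 467, 576 and 505 CPM at 4 h. It was at 509, 534 and 491 CPM at 8 h and 682, 676 and 618 CPM at 24 h. The means were 61.8%, 76.5%, 78.8%, 68.8% and 77.6% of those in NT, and only the libraries at 2 h overlapped. It passed both thresholds at 1 h (-0.70 ± 0.16, adjusted p = 0.00677), and did not without replicate 3 (adjusted p = 0.0699) or on log2 TPM (adjusted p from 0.115 to 0.247). At 4, 8 and 24 h the adjusted p was 0.00347, 0.000226 and 0.000599 with a fold under 1.5, and at 2 h it was 0.159.

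**Figure D3:**
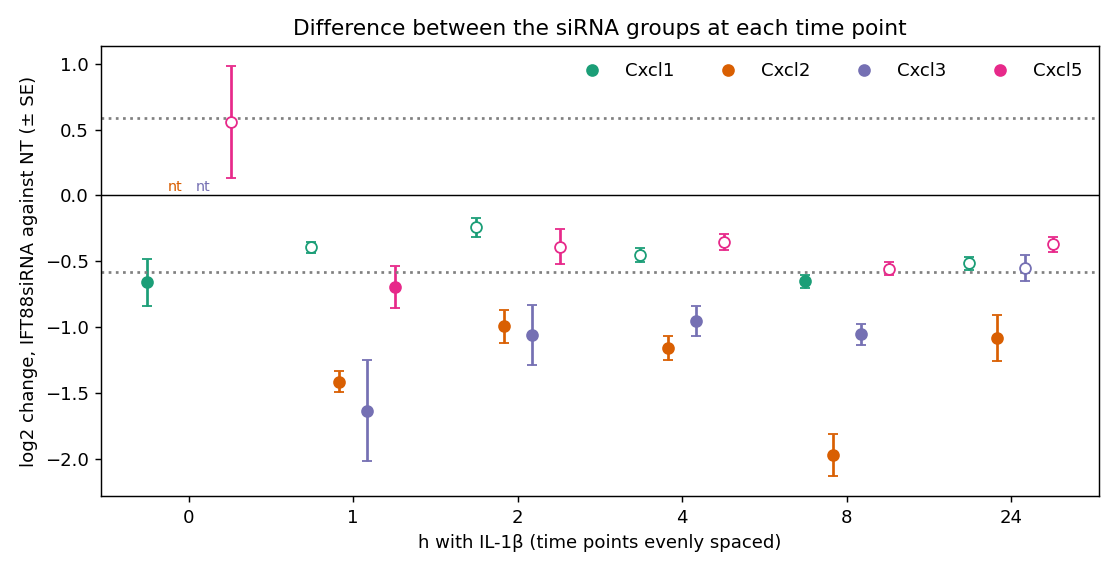
Log2 change between IFT88siRNA and NT (± SE, edgeR, 3 against 3 libraries) for each gene by hours with IL-1β, filled where both thresholds were passed and open where not, with nt for genes not tested and dotted lines at a 1.5-fold change. From 1 h on all points are below 0, and those of Cxcl2 and Cxcl3 are below those of Cxcl1 and Cxcl5.

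Counted per time point, 3 of 4 members passed as lower at 1 h, 2 at 2 h, 2 at 4 h, 3 at 8 h and 1 at 24 h. Of all genes tested, 2.47%, 0.462%, 0.399%, 0.613% and 0.598% passed as lower at those times. Complete separation below NT, found for 3 or 4 of the 4 members at each time, was found in 17.2% of genes at 1 h, 11% at 2 h, 10.4% at 4 h, 10.8% at 8 h and 13.6% at 24 h. At 2 h no member passed without replicate 1 (edgeR), at 8 h Cxcl5 also passed without replicate 2 (log2 change -0.61), and at 24 h Cxcl3 also passed without replicate 3 (log2 change -0.59). Tested with limma on log2 TPM, 1 member passed at 1 h, 0 at 2 h, 1 or 0 at 4 h, 3 at 8 h and 1 or 0 at 24 h, depending on the pseudocount and filter. Without replicate 3 at 8 h, which leaves out the IFT88siRNA library with the higher Ift88 level, the same number of members passed. Beside these values, chondrocyte markers moved in both directions between the siRNA groups. Of the 8, 5 were tested at 0 h, when 2 passed as lower and 2 as higher, and 4 were tested at each later time. Col2a1 passed as lower in IFT88siRNA at 0, 1, 2 and 4 h, while Sox9 (0.61 ± 0.06 at 0 h, 0.74 ± 0.07 at 24 h) and Comp (0.60 ± 0.08 and 0.87 ± 0.10) passed as higher at 0 and 24 h, when 0.674% and 0.552% of genes did. The siRNA groups also differed in median depth as given above. Their part in the result was not tested. A lower level per cell and fewer expressing cells cannot be told apart in bulk RNA.

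Whether the members were lowered unequally was tested on the log2 ratio of each pair within a library, with the siRNA labels permuted within the 5 time points (exact, two-sided, 6 pairs, adjusted over the pairs, chosen after the values were seen). Relative to Cxcl1, Cxcl2 was 0.86 lower in IFT88siRNA than in NT on the log2 scale (exact adjusted p = 1.88e-06) and Cxcl3 0.58 lower (exact adjusted p = 9.38e-06), in the same direction at all 5 times. The size was uneven: over the time points the ratio of Cxcl1 to Cxcl2 was higher by 0.54 to 1.28 and that of Cxcl1 to Cxcl3 by 0.03 to 1.19. At 24 h the log2 change between the siRNA groups was -0.55 ± 0.10 (SE) for Cxcl3 and -0.51 ± 0.05 for Cxcl1. Relative to Cxcl5, Cxcl2 was lower by 0.84 and Cxcl3 by 0.57 (exact adjusted p = 1.88e-06 and 3.75e-06), also in the same direction at all 5 times. The ratio of Cxcl2 to Cxcl5 differed by -1.37 to -0.61 over the time points and that of Cxcl3 to Cxcl5 by -0.91 to -0.17. The ratio of Cxcl1 to Cxcl5 differed by 0.02 between the groups (exact permutation p = 0.778) and ranged from -0.14 to 0.27 over the time points. The ratio of Cxcl2 to Cxcl3 differed by -0.28 (exact permutation adjusted p = 0.0749) and was lower at 3 of 5 times. The smallest p these permutations can give is 6.25e-07, and the log2 values carry a prior count of 2, which shrinks ratios with few reads.

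The difference between the siRNA groups was also compared among the 5 times after IL-1β. It differed between times for Cxcl1 (adjusted p = 0.0178) and Cxcl2 (adjusted p = 0.0338) and did not pass for Cxcl3 (adjusted p = 0.361) or Cxcl5 (adjusted p = 0.714), when 4.15% of genes passed this test. For Cxcl1 and Cxcl2 the IFT88siRNA share of NT was lowest at 8 h and highest at 2 h. Neither passed with any 1 of the 3 replicates left out.

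The response to IL-1β, measured as the change from 0 h, was a separate question, because Cxcl1 differed at 0 h already. The change from 0 h of Cxcl1 in IFT88siRNA minus that in NT was 0.27 ± 0.19 (SE) at 1 h, 0.42 ± 0.19 at 2 h, 0.22 ± 0.19 at 4 h, 0.02 ± 0.17 at 8 h and 0.15 ± 0.18 at 24 h on the log2 scale, and none of these passed. For Cxcl5 these differences were between -1.25 ± 0.62 and -0.90 ± 0.60 (adjusted p from 0.388 to 0.820), and for Cxcl3 between -1.52 ± 0.90 and -0.44 ± 0.80 (adjusted p from 0.516 to 0.947). Without replicate 1, which had the most reads of Cxcl5 in IFT88siRNA and of Cxcl3 in NT at 0 h, those of Cxcl5 were between -0.66 and -0.18 and those of Cxcl3 between -3.28 and -1.78, and without replicate 3 that of Cxcl3 at 24 h was 0.04. No member passed at a single time point by edgeR, when 0.598%, 0.245%, 0.311%, 0.275% and 0.132% of genes did from 1 to 24 h. At an unadjusted p under 0.05 there was 1 such value, Cxcl1 at 2 h, and with DESeq2 no member passed at a single time point either. Over the 5 times jointly, Cxcl2 passed both thresholds (adjusted p = 0.0406), when 1.2% of genes did, and did not with any 1 replicate left out. Cxcl1 passed the adjusted p (0.0197) with a difference under 1.5-fold at every time. With 2 reads of Cxcl2 in NT and none in IFT88siRNA at 0 h, its difference has no usable size, and its sign turned with the pseudocount.

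Per transcript length, Cxcl1 and Cxcl5 made up almost all of the summed level of the 4 genes. The summed TPM of the 4 genes in NT was 6.42 ± 0.71 (SD, n = 3) at 0 h, 3193 ± 111 at 1 h, 1689 ± 125 at 2 h, 2362 ± 81.5 at 4 h, 2489 ± 70.1 at 8 h and 2873 ± 136 at 24 h. After IL-1β it was highest at 1 h, lowest at 2 h and again high at 24 h, but with another mix of genes. At 1 h Cxcl1 held 95.7% ± 0.15 (SD, n = 3) of the sum and Cxcl5 0.374% ± 0.080. At 24 h Cxcl1 held 54.1% ± 0.58 and Cxcl5 44.5% ± 0.57. Cxcl2 held at most 4.39% ± 0.43, at 2 h, and Cxcl3 at most 2.19% ± 0.08 after IL-1β, at 8 h.

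In IFT88siRNA the sum was 5.0 ± 0.21 TPM (SD, n = 3) at 0 h, 2397 ± 59.1 at 1 h, 1344 ± 135 at 2 h, 1747 ± 125 at 4 h, 1617 ± 60.4 at 8 h and 2113 ± 68.3 at 24 h. The groups of 3 libraries did not overlap at any time. The share of Cxcl2 was 1.93% ± 0.31 at 1 h against 3.88% ± 0.06 in NT, and 0.274% ± 0.052 at 8 h against 0.747% ± 0.010. Levels from the counts per kilobase of merged exons gave the same order of shares at 1 h and another at 24 h: in NT at 24 h Cxcl5 held 55.0% ± 0.99 and Cxcl1 44.3% ± 0.98. By that measure the level of Cxcl3 was 0.483 of its TPM in the median library and that of Cxcl5 1.35, and the order of Cxcl1 and Cxcl5 differed between the measures at 8 and 24 h in NT and at 4 and 24 h in IFT88siRNA. The measures differ in the length used and in how reads were assigned, and these were not separated.

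**Figure D4:**
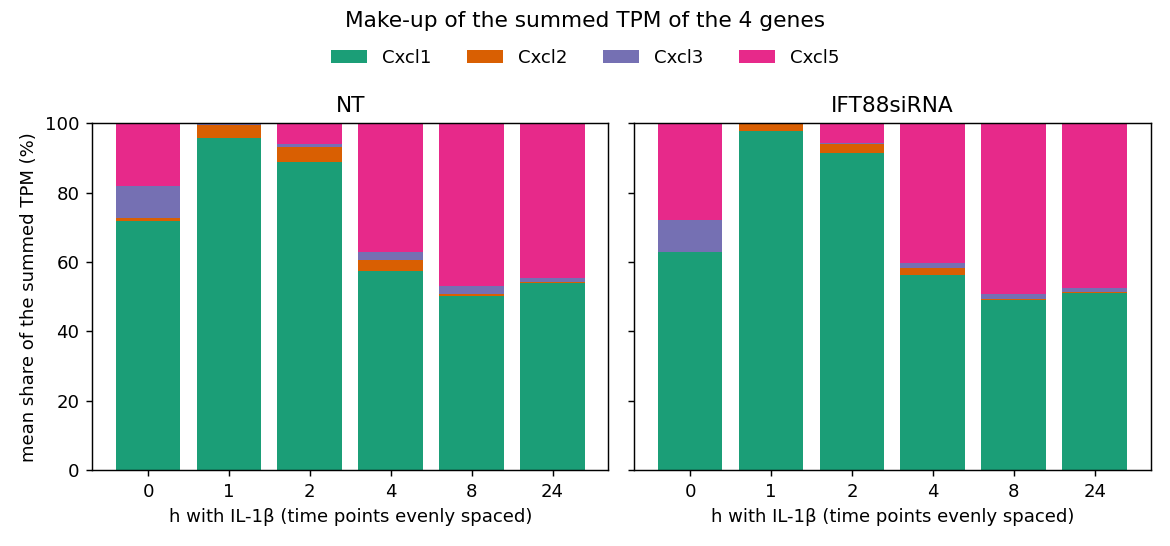
Mean share (%) of each gene in the summed TPM of the 4 genes, by hours with IL-1β, for NT (left) and IFT88siRNA (right), 3 libraries per bar. Cxcl1 takes 88.9% to 97.7% of the sum at 1 and 2 h, and Cxcl5 37.2% to 49.2% from 4 h on.

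Across the 12 condition means of log2 CPM, the closest pair among the members was Cxcl3 and Cxcl5 (r = 0.982), followed by Cxcl1 and Cxcl2 (r = 0.890). Over the 10 conditions with IL-1β, r was 0.963 for Cxcl3 and Cxcl5 and 0.683 for Cxcl1 and Cxcl2, while Cxcl1 and Cxcl5 ran against each other (r = -0.810). These conditions share a common rise from 0 h and libraries of unlike depth, so r is given as a description only.

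Among 14253 genes with at least 1 CPM in a condition, the 5 most like Cxcl1 were Ccl7 (r = 0.981) and Ccl2 (0.974), which encode monocyte attractants, Zfp36l1 (0.962), which encodes an mRNA decay factor, Ier3 (0.945) and Map3k8 (0.933). Those most like Cxcl2 were Rnd1 (0.991), Ereg (0.989), Ptgs2 (0.983), Sgk1 (0.979) and Ier3 (0.974). Ptgs2 encodes the inducible cyclooxygenase and Ereg the EGF receptor ligand epiregulin. Those most like Cxcl3 were Cxcl5 (0.982), Gm26902 (0.981), Ppm1h (0.978), Sbno2 (0.977) and Ccl5 (0.974). Those most like Cxcl5 were Gm26902 (0.991), Gm13293 (0.986), Mt2 (0.983), Cxcl3 (0.982) and Angptl4 (0.982), of which Mt2 encodes a metallothionein. Thus Cxcl1 and Cxcl2 had Ier3 in common, and Cxcl3 and Cxcl5 had each other and Gm26902. With log2(TPM + 1), 4, 3, 3 and 2 of the 5 genes were the same for Cxcl1, Cxcl2, Cxcl3 and Cxcl5, and with the 6 NT conditions only, 3, 4, 1 and 3.

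Of the listed chemokine receptors and scavengers, the scavenger Ackr3 was the 1 with enough reads to be tested. Whether Ackr3 takes up the chemokines described here was not measured. Cxcr2, the receptor on neutrophils, had at most 2 reads in a library, Cxcr1 at most 1 and Ackr1 at most 3. Ackr3 rose in NT at 2, 4, 8 and 24 h (log2 change 2.39 ± 0.07 at 4 h), and did not pass between the siRNA groups at any time. In the IL-1 receptor list, 3 of 4 genes were tested (Il1r1, Il1rap and Il1rn), and none passed between the siRNA groups. Il1rap, the accessory chain of the receptor, had the largest differences of these, from -0.32 ± 0.05 at 0 h to -0.55 ± 0.05 at 8 h, each with an adjusted p under 0.05 and a fold under 1.5.

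NFκB subunits, their inhibitors and co-regulators rose broadly with IL-1β: 10 of 11 passed as higher in NT at 1 h and 11 of 11 at 2 and 4 h, when 9.22%, 13% and 16.3% of genes did, with a median log2 change of 2.59 at 2 h against -0.01 over all genes. Nfkbiz, whose protein IκBζ helps NFκB at a subset of promoters, rose by 5.52 ± 0.05 at 1 h and Nfkbia, encoding the inhibitor IκBα, by 4.37 ± 0.05. Between the siRNA groups 1 of 11 passed, Nfkbie, which encodes the inhibitor IκBε, at 1 h (-0.89 ± 0.08, adjusted p = 1.97e-06), when 2.47% of genes passed as lower. The median log2 change of the list at 1 h was -0.28 against 0.00 over all genes, while the median at 24 h was -0.03. Nfkbiz was at -0.48 ± 0.05 at 8 h (adjusted p = 0.000718), under the fold threshold. Averaged over 1 to 24 h, Rela, which encodes p65, had the largest difference of the list. It was at -0.41 ± 0.02 (edgeR, adjusted p = 9.01e-19), also under the fold threshold. By the same average Nfkb1, Nfkb2, Relb and Rel were at -0.24 to -0.12, and Cebpd was at 0.08 ± 0.04 (edgeR, adjusted p = 0.155). These are mRNA levels, and for p65 protein the study reported no significant difference between NT and IFT88 siRNA cells.

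Genes of mRNA decay and stability included Zfp36, which encodes tristetraprolin, Zc3h12a, which encodes the endonuclease Regnase-1, and Traf3ip2, which encodes the adaptor Act1 that stabilises chemokine mRNAs downstream of IL-17. In NT 4 of 8 passed as higher at 1 h and 5 of 8 at 4 h, when 9.22% and 16.3% of genes did. Zfp36 rose by 3.96 ± 0.07 at 1 h and was back near its 0 h level at 24 h (0.03 ± 0.08), and Zc3h12a was highest at 2 h (5.28 ± 0.09). None of the 8 passed between the siRNA groups at any of the 6 time points, and their median log2 change stayed between -0.08 and 0.03.

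A wider list of genes of leukocyte growth, attraction and inflammation, not limited to neutrophils, was mixed. Csf3, which encodes the neutrophil growth factor G-CSF, passed as lower in IFT88siRNA at 4, 8 and 24 h, with its largest difference at 8 h (-1.53 ± 0.17, adjusted p = 0.000856), as did Il6 (-1.43 ± 0.10 at 8 h, adjusted p = 3.84e-05). Lif passed at 1, 8 and 24 h, and Csf2 at 1 h, when its mean in NT was 1.14 CPM. Ccl2 and Ccl7, the genes most like Cxcl1 over the conditions, and C3 and Il17ra did not pass at any time. Averaged over 1 to 24 h, Ccl2 was at -0.25 ± 0.03 (edgeR, adjusted p = 3.48e-08), under the fold threshold, and Ccl7 at 0.02 ± 0.03 (edgeR, adjusted p = 0.589). The study names Ccl2 among genes lower after Ift88 siRNA, with a plot of genes chosen by adjusted p alone. Ccl7 was at 0.17 ± 0.05 at 1 h and -0.24 ± 0.05 at 24 h. In the list of 9 genes, 2 of 8 tested passed as lower at 1 h, none of 8 at 2 h, 2 of 8 at 4 h, and 3 of 7 at both 8 and 24 h, with none higher. The shares of all genes that passed as lower were 2.47%, 0.462%, 0.399%, 0.613% and 0.598% from 1 to 24 h.

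Of the 11 other CXC chemokine genes, 7 or 8 were tested and 0 to 2 passed between the siRNA groups at a time point, each as lower, when 0.399% to 2.47% of genes did. Cxcl11 passed as lower at 1 h (-0.62 ± 0.19, adjusted p = 0.0326) and at 8 h (-0.83 ± 0.16, adjusted p = 0.0167) and Cxcl9 at 8 h (-0.67 ± 0.11, adjusted p = 0.00699), both encoding attractants of T cells. Cxcl10, induced in NT by 6.34 ± 0.07 at 4 h, was at -0.12 ± 0.05 between the siRNA groups at that time. The median of the list ran from -0.36 at 8 h to 0.28 at 0 h. The other genes with the ELR motif, Ppbp and Cxcl15, did not pass between the siRNA groups at any time, and Ppbp was at -0.50 ± 0.08 (adjusted p = 0.00765) at 8 h.

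Within 250 kb of the members the annotation holds 24 genes, 20 of them not members, of which 7 or 8 had enough reads to be tested between the siRNA groups. Positions are given as the distance of a gene's start from that of Cxcl5, which puts Cxcl3 at 26.7 kb, Cxcl1 at 131.9 kb and Cxcl2 at 144.5 kb. Ppbp, at 9.2 kb, was at 1.97 TPM in NT at 0 h and 36.5 TPM at 8 h (log2 change 4.27 ± 0.17), while Pf4, at 13.1 kb, had at most 13 reads. Cxcl15, at 35.2 kb, was at 1.12 TPM at 0 h and 1.65 TPM at 8 h in NT, where Cxcl3 itself was at 54.6 TPM. Mthfd2l, at 171.8 kb, was at 24 TPM and 29.9 TPM at those times. In NT at 8 h, 5 of these neighbours rose, Ppbp, Ereg (2.40 ± 0.07), Rassf6 (2.27 ± 0.19), Cxcl15 (0.92 ± 0.26) and Areg (0.69 ± 0.19), when 11.8% of all genes did. Mthfd2l, at 0.44 ± 0.07 (adjusted p = 1.6e-05), was under the fold threshold.

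Between the siRNA groups, the neighbours that passed were Ereg and Areg, which encode EGF receptor ligands and lie at 315.3 kb and 380.2 kb. Ereg was lower in IFT88siRNA at 0, 8 and 24 h (-0.86 ± 0.06 at 8 h, adjusted p = 3.67e-05) and Areg at 0, 1, 8 and 24 h (-0.97 ± 0.18 at 8 h, adjusted p = 0.0171). Of all genes tested, 1.56%, 2.47%, 0.613% and 0.598% passed as lower at 0, 1, 8 and 24 h. Mthfd2l and Rassf6 did not pass at any time. Ereg overlaps the antisense gene Gm19610, and reads from the overlap cannot be assigned because strand was not used.

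**Figure D5:**
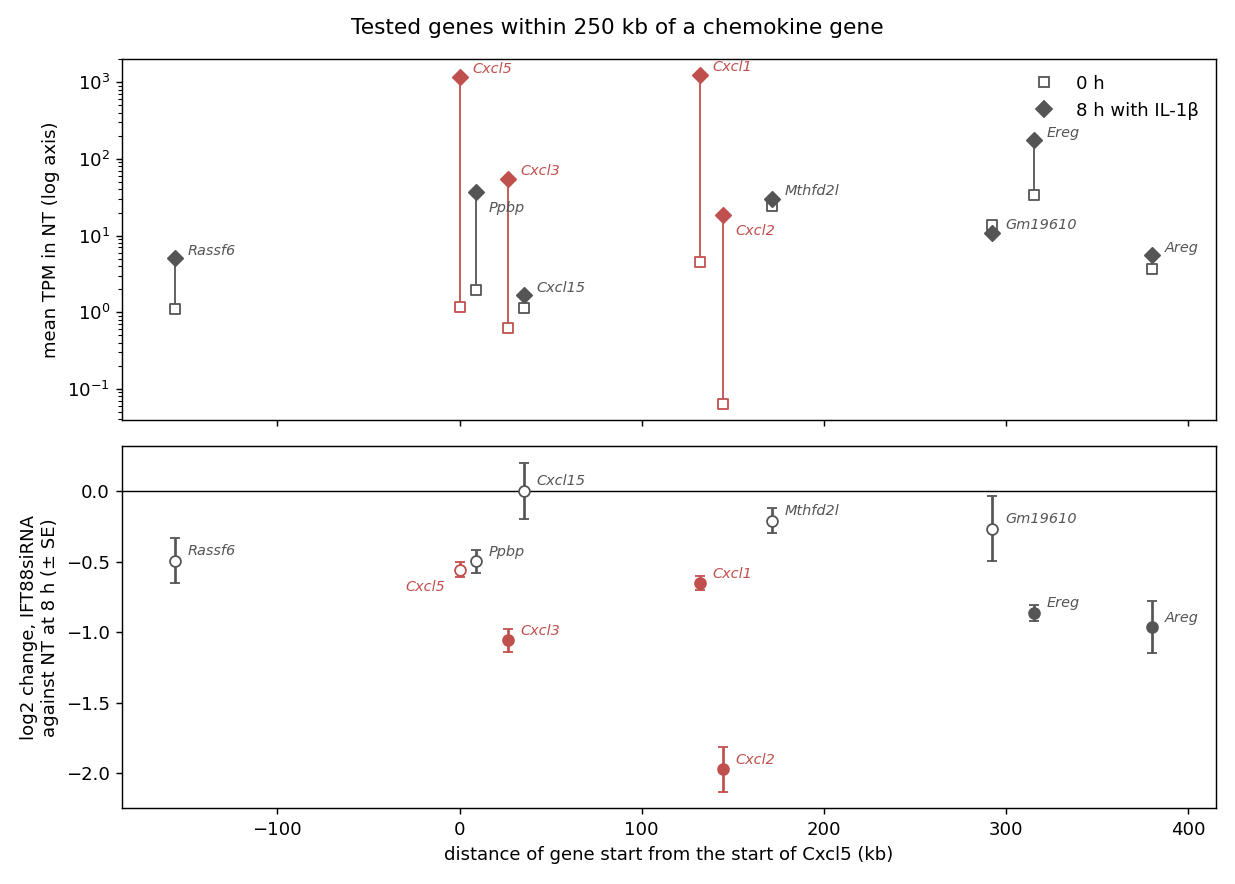
Genes within 250 kb of a member that were tested between the siRNA groups at 8 h, by distance of the gene start from the start of Cxcl5 (kb), members in red, with mean TPM in NT at 0 h (open squares) and 8 h (filled diamonds) on a log axis above and the log2 change between IFT88siRNA and NT at 8 h (± SE), filled where both thresholds were passed, below. The 4 members rise far more than Cxcl15 or Mthfd2l beside them. Ppbp, between Cxcl5 and Cxcl3, also rises, from 1.97 to 36.5 TPM, as do Ereg and Rassf6. The filled points of neighbours in the lower panel are those of Ereg and Areg.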

How the data were processed

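Per the methods, the authors aligned paired reads of poly(A) RNA to GRCm38 with HISAT2 2.1.0 and counted them per Ensembl gene with featureCounts (Subread 1.6.3, default settings, which ignore strand). The whole-number counts were deposited without normalization, and the authors deposited TPM from Salmon 0.9.1 beside them. Groups came from the sample labels. Tests on the counts used edgeR 4.0.16 under R 4.3.3 over all genes (TMM, filterByExpr, two-sided quasi-likelihood, Benjamini-Hochberg), and a gene passed at adjusted p under 0.05 and fold change over 1.5. The SE is the log2 change over the square root of F. The siRNA groups were fitted within each time point (3 against 3), time courses within each siRNA group (18 libraries) and differences in response over all 36. Depth was 19337022 to 38304127 counts. Intervals and floors of 3 counts per library cover counting error only, because reads carried no molecular identifiers. With 3 against 3 libraries an exact permutation test cannot go below p = 0.1. Pearson's r used log2 CPM with a prior count of 2. Alternatives were DESeq2 1.42.0 and its size factors, no low-count filter, the replicate block, one joint model, each replicate left out in turn, and limma 3.58.1 on log2 TPM with a pseudocount of 1 (with and without a filter of 1 TPM in 3 libraries) or 0.1. The steps were tested on simulated data. The members, gene lists and motif words were chosen with earlier results of these data known. Genes named were the members, listed genes that passed or stand beside a result, genes within 250 kb and the 5 most alike.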

Additional observations from a re-analysis of the deposited data

Results flagged for a closer look

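For 2 of the 4 genes the difference between IFT88siRNA and NT was not the same at all times. With the 0 h libraries included, the responses to IL-1β differed jointly over the 5 later times for Cxcl2 (edgeR, adjusted p = 0.0406). Cxcl1 passed the adjusted p (edgeR, adjusted p = 0.0197), but its difference was under 1.5-fold at every time. Its change from 0 h in IFT88siRNA minus that in NT was 0.02 to 0.42 on the log2 scale. Among the 5 later times alone, the siRNA difference varied for Cxcl1 (edgeR, adjusted p = 0.0178) and for Cxcl2 (edgeR, adjusted p = 0.0338). For Cxcl1 the log2 change between the siRNA groups was -0.24 at 2 h and -0.65 at 8 h, and for Cxcl2 it was -0.99 at 2 h and -1.97 at 8 h. None of these 4 tests passed with replicate 1, 2 or 3 left out (edgeR, adjusted p from 0.0517 to 0.503). The response of Cxcl2 is measured from 2 reads in NT and 0 in IFT88siRNA at 0 h.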

How the results depend on the processing

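Comparisons between the siRNA groups and between time points were repeated under 11 other settings, and those fitted over all 36 libraries under 10. After IL-1β, the log2 change between the siRNA groups stayed negative for all 4 genes at all 5 times in every setting that gave a value, and the rises in NT passed for all 4 genes in each. The number of members that passed between the siRNA groups moved as follows. At 0 h it was 1, and 0 with DESeq2 and with log2 TPM in all 3 forms (pseudocount 1, pseudocount 0.1, no filter). At 1 h it was 3, and 1 in all 3 forms of log2 TPM, and at 2 h it was 2, and 0 in all 3. At 4 h it was 2, and 1, 1 and 0 in those forms. At 24 h it was 1, and 0 with log2 TPM and no filter. With a replicate left out it ranged from 0 to 1 at 0 h, 2 to 3 at 1 h, 0 to 2 at 2 h, 3 to 4 at 8 h and 1 to 2 at 24 h. From 8 to 24 h in NT, 1 to 2 members passed with a replicate left out, and from 1 to 2 h 3 to 4 did. For the response from 0 h, no member passed at a single time by edgeR, but at 1 h 1 did without the low-count filter, and 2, 1 and 1 did in the 3 forms of log2 TPM. At 2, 4 and 24 h 1 did with pseudocount 1, filtered or not, and at 8 h 1 did in all 3 forms. Jointly, 1 member passed, 3 without the low-count filter and 0 with any replicate left out. For the siRNA difference varying over 1 to 24 h, 2 passed, against 1, 0 and 1 in the 3 forms of log2 TPM and 0 with any replicate left out. The difference in the response of Cxcl2, 1.31, 1.73, 1.56, 0.75 and 1.64 from 1 to 24 h by edgeR, turned to -1.33, -0.93, -1.06, -1.77 and -0.86 with log2(TPM + 1), filtered or not, and at 8 h to -1.42 with log2(TPM + 0.1). In each case the 0 h value rests on 2 reads in all, and the cause of the other moves was not tested. DESeq2 gave no adjusted p for Cxcl3 between the siRNA groups at 1 h.

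Over all genes, counts of calls between the siRNA groups were 341 (75 to 406) at 0 h, 393 (51 to 473) at 1 h, 73 (8 to 142) at 2 h, 64 (13 to 100) at 4 h, 105 (22 to 422, the last without replicate 3) at 8 h and 175 (34 to 217) at 24 h. The mean over 1 to 24 h gave 314 (52 to 388), and its variation over those times 694 (95 to 1232). Responses gave 100 (15 to 119), 41 (10 to 85), 52 (8 to 79), 46 (15 to 69), 22 (8 to 40) and jointly 201 (62 to 345), and 24 h against 8 h in NT gave 2149 (1408 to 2324). On log2 TPM the median change over all genes from 0 h to 2 h in NT was as low as -0.25, against -0.01 with TMM, and the share of rises among called genes was 26.3%, against 47.6%. At 4 h that share was 36.2% to 38.7% in NT, against 56.7%. The members' rises are far larger than that shift. Between the siRNA groups the share of higher calls was 6.85% at 2 h and 32.1% to 63.6% on log2 TPM.

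With the replicate block, the number of members that passed was the same in all 28 comparisons, such as 3 at 1 h and 3 at 8 h between the siRNA groups. Libraries with the same replicate number did not deviate together (48 correlations of deviations from -0.13 to 0.22, of which 2 were over 0.1), so the numbers were not taken as pairs. Shares of the summed level moved by more than 1 SD in 40 of 48 cases with counts per kilobase of exons.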
